A study of Mus musculus with 12 samples.

Results

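Leukocyte adhesion molecules are the surface proteins by which a circulating leukocyte is caught by and held to a vessel wall. The set described here was defined by gene name and by role, with earlier results of these data known, and it holds 8 of the 24340 genes listed in the expression table. Icam1 and Vcam1 encode ligands displayed by endothelium, Sele and Selp encode the endothelial selectins, and Itgb2, Itgal, Itgam and Itga4 encode subunits of leukocyte integrins. Counted by role, there were 2 endothelial ligands, 2 selectins and 4 integrin subunits. All 8 genes were above 0 in at least 1 library and so were among the 18509 rows tested. The members also appear in a pathway gene list with which the study displayed these libraries, so that their direction is not independent evidence.

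RNA was sequenced from both retinas of 6 mice of the strain p16-3MR, aged 12 to 16 weeks. In this strain the regulatory region of p16 drives a reporter that carries a luciferase, a red fluorescent protein and a viral thymidine kinase, so that ganciclovir (GCV) kills the cells that express it. Every group, controls included, carries this transgene, whose own transcripts were not analysed here. Intraocular pressure (IOP) was raised in a single eye of each mouse to between 85 and 90 mm Hg over 60 min, with the fellow eye as the control, which gave 4 groups of 3 retinas: ctrl and IOP from mice 3, 4 and 6, which had PBS as a sham treatment, and ctrl-GCV and IOP-GCV from mice 1, 2 and 5, which had GCV at 25 mg/kg once a day. The retinas were taken 3 days after the elevation. The design asks how raised pressure alters the retina and whether removal of p16‐expressing cells alters that response.

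Leukocytes leave the blood in steps. Selectins on activated endothelium slow the cells by binding sugar-decorated ligands, chemokine signals inside the leukocyte then switch its integrins to a high-affinity state, and the integrins bind immunoglobulin-family ligands on the endothelium. The product of Itgb2 pairs with that of Itgal to form a receptor for the Icam1 product, and with that of Itgam to form a receptor for the Icam1 product, fibrinogen and complement fragments, whereas the product of Itga4 pairs with that of Itgb1 to form the classical receptor for the Vcam1 product. In the retina, the vessels carry a tight barrier, resident microglia express Itgam and Itgb2 without having come from the blood, and Icam1 and Vcam1 can also be made by glia. In whole retinas more cells of a type and more RNA per cell cannot be told apart.

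The genes are given in RefSeq coordinates of GRCm38.p6. Icam1 lies at chr9:21015940-21028814 and Vcam1 at chr3:116110020-116129688, Sele and Selp are neighbours at chr1:164039614-164058487 and chr1:164115264-164150026, Itgal and Itgam share a chromosome at chr7:127296139-127335137 and chr7:128062640-128118491, Itgb2 lies at chr10:77530329-77565708 and Itga4 at chr2:79255426-79333114. Of the 8 genes, 5 had a promoter in the RefSeq table. One per role is shown, as the 250 bases upstream of the annotated start, to set side by side a ligand and a myeloid integrin that were higher after pressure and a selectin that was barely detected. Capitals mark the letters of a palindromic NF-kB motif (GGAANTTCC) in Icam1, of a TATA box (TATAAA) in Sele and of the core bound by the myeloid factor PU.1 (GAGGAAG) in Itgam.
Icam1 promoter, chr9:21015690-21015939, + strand: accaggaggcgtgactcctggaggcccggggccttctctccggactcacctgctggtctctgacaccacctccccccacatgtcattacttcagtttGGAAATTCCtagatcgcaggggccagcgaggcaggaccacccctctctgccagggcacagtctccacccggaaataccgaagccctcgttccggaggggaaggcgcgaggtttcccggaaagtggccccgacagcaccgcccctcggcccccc
Sele promoter, chr1:164047984-164048233, + strand: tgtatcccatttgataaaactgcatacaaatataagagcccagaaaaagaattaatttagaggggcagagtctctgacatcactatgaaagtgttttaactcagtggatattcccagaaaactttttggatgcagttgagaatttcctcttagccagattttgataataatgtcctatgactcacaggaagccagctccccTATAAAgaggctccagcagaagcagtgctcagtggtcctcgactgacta
Itgam promoter, chr7:128062390-128062639, + strand: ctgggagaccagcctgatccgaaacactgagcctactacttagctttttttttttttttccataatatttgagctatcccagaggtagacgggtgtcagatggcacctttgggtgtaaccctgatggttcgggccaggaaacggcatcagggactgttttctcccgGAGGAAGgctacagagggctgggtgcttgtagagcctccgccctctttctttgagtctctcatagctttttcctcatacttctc
The Sele window precedes a start inside the annotated span of the gene. Searched on both strands of the upstream bases of 32851 promoters, GGAANTTCC was present in 0.8% of them and, among the 5 members, only in Icam1, where it began at position -153 relative to the start. Only this palindromic form of the NF-kB motif was searched, so that other forms, in Sele or elsewhere, were not looked for. TATAAA was present in 12.4% and among the members only in Sele, at position -49. GAGGAAG was present in 10.6% and among the members only in Itgam, at position -84. The motifs did not overlap each other in these windows. The GC box GGGCGG was present in 32.7% and in Icam1, Itgam and Itga4.

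Over both arms Vcam1, Icam1, Itgb2, Itgam and Itga4 were higher in IOP retinas, Icam1 no longer so called with the mouse as a block. Itgal did not pass the test, no member was called in either arm alone, and the selectins were at or near 0 in every retina but that of mouse 4 after pressure, where Selp had about 14 fragments. Values are FPKM, fragments normalized to transcript length and library size, and so can be compared between genes. In control retinas the order by median FPKM over 6 eyes was Itga4 (7.13), Vcam1 (3.71), Itgam (1.09), Itgb2 (0.609), Icam1 (0.306), Itgal (0.0819) and the selectins (0). In IOP retinas it was Itga4 (13.5), Itgb2 (11.03), Vcam1 (10.2), Itgam (8.15), Icam1 (3.12) and Itgal (0.497), with Sele at 0.0208 and Selp at 0. By these medians Itgb2 moved from below Itgam to above it. The ranges of Itga4 and Vcam1 did not overlap in control retinas (5.71 to 7.75 and 3.41 to 4.50 FPKM), and nor did those of Vcam1 and Itgam (the latter 0.740 to 1.45). The ranges of Itgam, Itgb2 and Icam1 overlapped in control retinas, and those of Itga4, Itgb2, Vcam1 and Itgam overlapped in IOP retinas.

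Vcam1 was the more abundant of the ligands. It was 3.42, 3.60 and 3.90 FPKM in the ctrl retinas of mice 3, 4 and 6 and 10.2, 19.1 and 6.95 FPKM in their IOP retinas. With GCV it was 3.41, 3.82 and 4.50 FPKM in the ctrl-GCV retinas of mice 1, 2 and 5 and 14.1, 8.27 and 10.2 FPKM in the IOP-GCV retinas. Every IOP retina was above every control retina, and the control retinas were tightly grouped in both arms, at 3.64 ± 0.241 and 3.91 ± 0.556 FPKM (SD, n = 3). The IOP retinas varied more, at 12.1 ± 6.31 and 10.9 ± 2.99 FPKM, with mouse 4 highest and mouse 6 lowest.

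Icam1, which endothelium and other cells make at low levels until they meet inflammatory cytokines, was under 1 FPKM in all control retinas. It was 0.0542, 0.277 and 0.917 FPKM in the ctrl retinas of mice 3, 4 and 6 and 4.19, 2.36 and 0.630 FPKM in their IOP retinas. It was 0.335, 0.438 and 0.184 FPKM in the ctrl-GCV retinas of mice 1, 2 and 5 and 3.87, 1.04 and 10.7 FPKM in the IOP-GCV retinas. The IOP retina exceeded the control retina in 5 of 6 mice, and in mouse 6 it was the lower of the pair, by 0.23 on the log2(FPKM + 1) scale. That IOP retina was also the most shallowly sequenced. The Icam1 values rest on an estimated 1 to 219 fragments per library, so that the control level is poorly fixed.

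The selectins, which are stored in endothelial granules (Selp) or made within hours of cytokine exposure (Sele), were barely detected. Sele was listed at 0 in 4 of 6 control retinas and 3 of 6 IOP retinas, and its highest value, 0.0892 FPKM in the IOP-GCV retina of mouse 1, corresponds to an estimated 2 fragments. Summed over eyes, about 2 fragments fell on Sele in control retinas and 4 in IOP retinas, which is around the limit of 3 counts that a level of 0 allows, and no fold is given. Selp was at 0 in 5 control retinas and in 4 IOP retinas. Its values above 0 were 0.489 FPKM in the IOP retina of mouse 4, 0.139 FPKM in the IOP-GCV retina of mouse 5 and 0.0445 FPKM in the ctrl-GCV retina of mouse 5, or about 14, 4 and 1 fragments. No difference in either selectin was called in any contrast, Sele rests on very few fragments, and Selp transcripts came mostly from 1 retina.

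Itgb2, the common subunit of the leukocyte-specific integrins, had the largest difference of the 8 genes. It was 0.477, 0.529 and 1.27 FPKM in the ctrl retinas of mice 3, 4 and 6 and 12.0, 7.92 and 12.2 FPKM in their IOP retinas. It was 0.688, 0.482 and 1.08 FPKM in the ctrl-GCV retinas of mice 1, 2 and 5 and 10.0, 3.72 and 46.1 FPKM in the IOP-GCV retinas. The groups did not overlap, and the IOP-GCV retina of mouse 5 stood above the other 5 IOP retinas. The mean over 6 IOP retinas was 20.3 times that over 6 control retinas, but 13.3 times without mouse 5.

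Itgam, whose product is the CD11b antigen of myeloid cells, ran alongside. It was 0.740, 0.754 and 1.42 FPKM in the ctrl retinas of mice 3, 4 and 6 and 9.55, 6.76 and 16.9 FPKM in their IOP retinas. It was 0.941, 1.24 and 1.45 FPKM in the ctrl-GCV retinas of mice 1, 2 and 5 and 5.02, 3.90 and 34.0 FPKM in the IOP-GCV retinas. Again no IOP retina fell into the control range, and the same GCV-treated mouse was highest and mouse 2 lowest. The ratio of mean IOP to mean control FPKM was 11.6, and between 8.27 and 13.6 with any 1 mouse left out.

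Itgal, whose product is the CD11a antigen found on most leukocytes and richly on lymphocytes, was the least abundant integrin. Its FPKM was 0, 0.0868 and 0.159 in the ctrl retinas of mice 3, 4 and 6 and 0.474, 0.520 and 0.791 in their IOP retinas. In the GCV arm it was 0.0262, 0.0770 and 0.144 in the ctrl-GCV retinas and 0.460, 0.201 and 2.50 in the IOP-GCV retinas of mice 1, 2 and 5. Although the 6 IOP values lay above the 6 control values, they rest on an estimated 20 fragments in all control retinas and 193 in all IOP retinas, 109 of the latter in mouse 5.

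By its median Itga4 was the most abundant member in both conditions, and by the ratio of mean FPKM it had the smallest fold among the integrins. In IOP retinas its mean was 15.3 FPKM, as was that of Itgb2, and Vcam1 was above it in mice 1 and 4. It was 7.75, 7.54 and 7.61 FPKM in the ctrl retinas of mice 3, 4 and 6 and 13.9, 13.2 and 25.5 FPKM in their IOP retinas. It was 5.86, 5.71 and 6.71 FPKM in the ctrl-GCV retinas of mice 1, 2 and 5 and 10.3, 9.54 and 19.4 FPKM in the IOP-GCV retinas. The ratio of the means was 2.23, and 1.97 without mouse 6, whose IOP retina was highest. The last part of Itga4 overlaps Cerkl, a ceramide kinase-like gene of the retina, on the opposite strand over 1124 exonic bases in GENCODE, and whether the counting used strand is not given in the sources used here. Cerkl itself was 7.06 to 11.2 FPKM in control retinas and 11.6 to 29.6 FPKM in IOP retinas, and differed by 0.92 (SE 0.21, adjusted p = 0.0254, limma) on the log2 scale over both arms. Itga4 differed by 0.98 (SE 0.20) in the same contrast. Among IOP retinas that of mouse 6, the most shallowly sequenced, had the highest Itga4 and, at 13.9 FPKM, the second lowest Cerkl. Because of the overlap the level of Itga4 is uncertain, and the part of Cerkl reads in it was not tested. Itgam shares exonic bases on its own strand with the gene model Gm49368, and Icam1, Vcam1 and Selp with antisense or noncoding models.

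**Figure D1:**
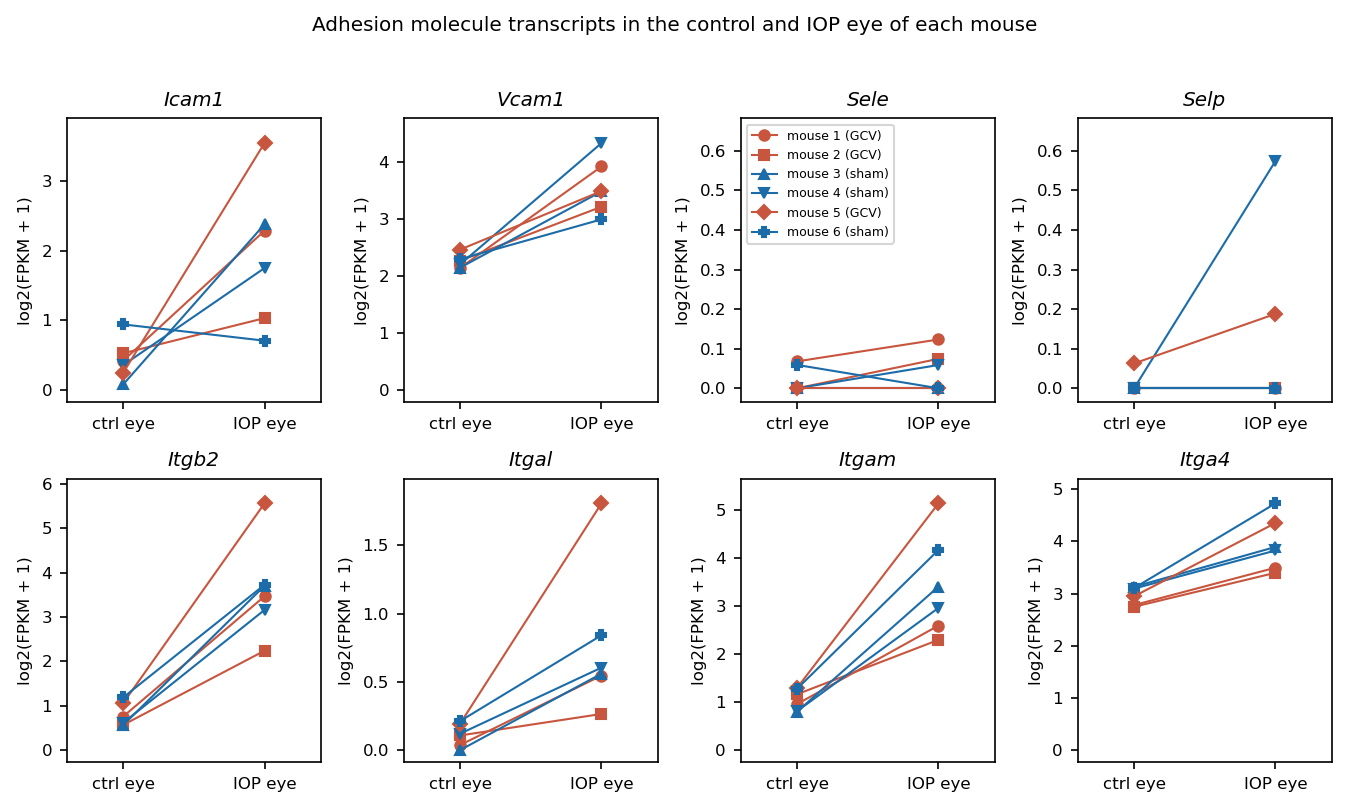
Level of each adhesion molecule, as log2(FPKM + 1), in the control eye and the IOP eye of the 6 mice, with a line for each mouse in blue (sham) or red (GCV) and a separate vertical scale in each panel. All 6 lines rise for Vcam1, Itgb2, Itgal, Itgam and Itga4 and 5 of 6 for Icam1, and Sele and Selp stay near 0 apart from Selp in mouse 4.

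Taken per mouse, the IOP retina was higher than the other eye in 6 of 6 mice for Vcam1, Itgb2, Itgal, Itgam and Itga4, which held for 10.7% of all rows tested. For these same 5 genes the lowest IOP retina lay above the highest control retina, as for 5.47% of all rows. The difference within a mouse on the log2(FPKM + 1) scale had a median of 2.63 for Itgb2 (1.67 to 4.50), 2.37 for Itgam (1.13 to 3.84), 1.63 for Icam1 (-0.23 to 3.30), 1.18 for Vcam1 (0.70 to 2.13), 0.75 for Itga4 (0.65 to 1.62) and 0.53 for Itgal (0.16 to 1.61). This scale understates the change of genes with values under 1 FPKM, such as Itgal.

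Within either arm alone, limma on 4 group means with adjustment over 18509 rows called 0 of 8 members. Without GCV the background was 1.65% of all rows, and the smallest adjusted p among the members was 0.0511, for Vcam1 (log2 difference 1.39, SE 0.30). With GCV the background was 1.8%, and the smallest was 0.0504, for Itgb2 (2.96, SE 0.64). Both lie just outside the threshold of 0.05, and the unadjusted p was under 0.05 for Vcam1, Itgb2, Itgam and Itga4 without GCV and for these and Icam1 and Itgal with GCV, as for 18.9% and 19.2% of all rows. The counts turned on the processing, with 3 members called without GCV and 2 with it at a pseudocount of 0.1, 2 in each arm among genes of at least 1 FPKM in 3 libraries, and 2 without GCV when the compared groups were fitted alone. They also turned on single libraries, as did those over all rows. Vcam1, Itgb2, Itgam and Itga4 were called without GCV once the IOP retina of mouse 4 was left out, when the rows called in all went from 306 to 2490 of 18509, and Vcam1 alone was called without that of mouse 6 (202 rows). With GCV, where 334 rows were called, Icam1, Itgb2 and Itgam were called without the IOP-GCV retina of mouse 2 (716 rows), and Itgb2 without that of mouse 5 (log2 difference 2.06, adjusted p = 0.032, 209 rows) or without both eyes of mouse 2 (318 rows).

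The mean IOP effect over both arms, which uses all 12 retinas, was called for 5 of 8 members, all higher in IOP retinas, against a background of 12.2% of all rows (6.76% higher). Itgb2 rose by 2.85 (SE 0.46, adjusted p = 0.00495), Itgam by 2.37 (SE 0.44, adjusted p = 0.0106), Icam1 by 1.52 (SE 0.41, adjusted p = 0.0403), Vcam1 by 1.32 (SE 0.21, adjusted p = 0.00509) and Itga4 by 0.98 (SE 0.20, adjusted p = 0.014) on the log2(FPKM + 1) scale. With a pseudocount of 0.1 the difference was 2.76 for Icam1, 3.82 for Itgb2 and 3.06 for Itgam, and the ratio of mean IOP to mean control FPKM of Icam1 was 10.3 (5.98 without mouse 5 and 17.2 without mouse 6). Itgal had a difference of 0.66 (SE 0.22, adjusted p = 0.0719), Selp of 0.12 (SE 0.09) and Sele of 0.02 (SE 0.03). The median over the 8 members was 1.15, and over all rows 0.01. Icam1 was the weakest call: with the mouse as a block, which compares the eyes of each animal, 4 members were called (background 7.3%) and the adjusted p of Icam1 was 0.080, and it was called in 5 of 18 fits that left out 1 library or 1 mouse. Without both eyes of mouse 3 the Itgam and Itga4 calls were lost as well (adjusted p = 0.0615 and 0.0557), and Itgal was called without the IOP-GCV retina of mouse 5 (0.42, adjusted p = 0.0114) or of mouse 2 (0.81, adjusted p = 0.0301). Itgb2 and Vcam1 were called in all 18.

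**Figure D2:**
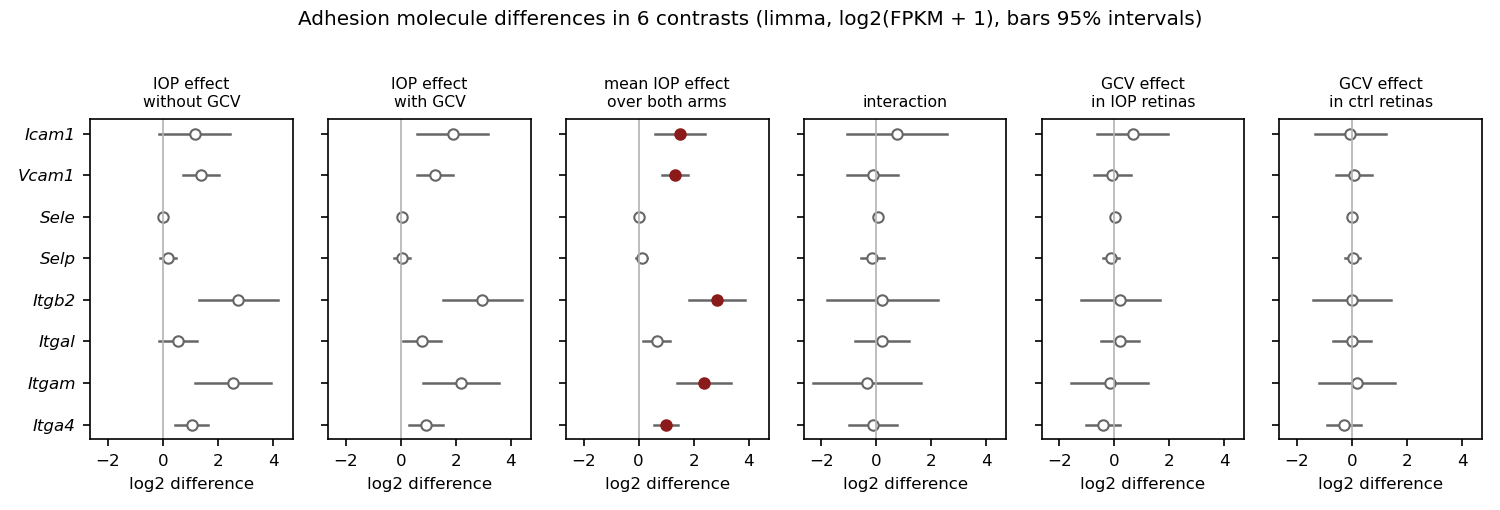
Log2 difference of each adhesion molecule in 6 contrasts, with 95% intervals from limma on log2(FPKM + 1) and filled points for adjusted p under the threshold of 0.05. Filled points are seen only for the mean IOP effect over both arms, for Icam1, Vcam1, Itgb2, Itgam and Itga4, and the intervals of the GCV contrasts and of the interaction all span 0.

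The effect of GCV on the response was next examined. The difference between the IOP effects with and without GCV (interaction) was called for 0 members and 0 of 18509 rows (limma), with 358 rows at an unadjusted p under 0.05 and no member among them. Its 95% interval was -1.08 to 2.55 for Icam1, -1.08 to 0.80 for Vcam1, -1.80 to 2.24 for Itgb2, -0.77 to 1.17 for Itgal, -2.31 to 1.62 for Itgam and -0.99 to 0.75 for Itga4. These intervals are wider than the mean IOP effects, so that neither an equal nor a clearly different response to pressure under GCV was shown. Among IOP retinas, GCV was called for 0 members and 0 rows (774 at an unadjusted p under 0.05), with log2 differences, IOP-GCV minus IOP, from -0.40 for Itga4 to 0.68 for Icam1. With 1 library left out these ran from -0.70 (without the IOP-GCV retina of mouse 5) to -0.11 (without the IOP retina of mouse 6) for Itga4 and from 0.05 (without the IOP-GCV retina of mouse 5) to 1.30 (without that of mouse 2) for Icam1. Among control retinas it was likewise called for 0 members and 0 rows (295 at an unadjusted p under 0.05), and the differences lay between -0.29 for Itga4 and 0.18 for Itgam.

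The spread among GCV-treated mice was wide for Itgb2 and Itgam. In IOP-GCV retinas Itgb2 was 20.0 ± 22.9 FPKM and Itgam 14.3 ± 17.1 FPKM, against 10.7 ± 2.42 and 11.1 ± 5.23 FPKM in IOP retinas (SD, n = 3), whereas Itga4 was 13.1 ± 5.50 FPKM with GCV and 17.5 ± 6.93 FPKM without. Mice 2 and 5, both given GCV, were the lowest and the highest IOP retina for Itgb2, Itgal and Itgam. Without the IOP-GCV retina of mouse 5 the difference between IOP-GCV and IOP was -0.68 for Itgb2 and -0.26 for Itgal, against 0.23 and 0.20 with it, so that their sign rested on that retina.

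The α subunits that pair with Itgb2 were mostly Itgam in both conditions. Itgam made up 78.2% to 95.7% of the summed FPKM of Itgal, Itgam, Itgax and Itgad in control retinas (median 87.4%) and 79.0% to 88.4% in IOP retinas (median 82.1%). The share of Itgal had a median of 7.07% in control and 5.13% in IOP retinas, and that of Itgax, the CD11c subunit of dendritic cells and activated microglia, 5.47% and 12.6%. The ranges overlapped, at 0 to 10.3% and 4.10% to 7.33% for Itgal and 0 to 13.1% and 4.99% to 14.9% for Itgax. Itgad was at 0 in all retinas but the IOP-GCV retina of mouse 5. Itgb2 relative to the summed α subunits had a median ratio of 0.626 in control retinas (0.358 to 0.702) and 0.987 in IOP retinas (0.633 to 1.60), with overlapping ranges. For Itga4, the partner Itgb1 was 12.8 to 15.9 FPKM in control and 14.4 to 44.6 FPKM in IOP retinas. It was above Itga4 in every retina but the IOP retina of mouse 6 (22.3 against 25.5 FPKM), whereas the alternative partner Itgb7 was 0.0518 to 0.183 and 0.199 to 1.36 FPKM.

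**Figure D3:**
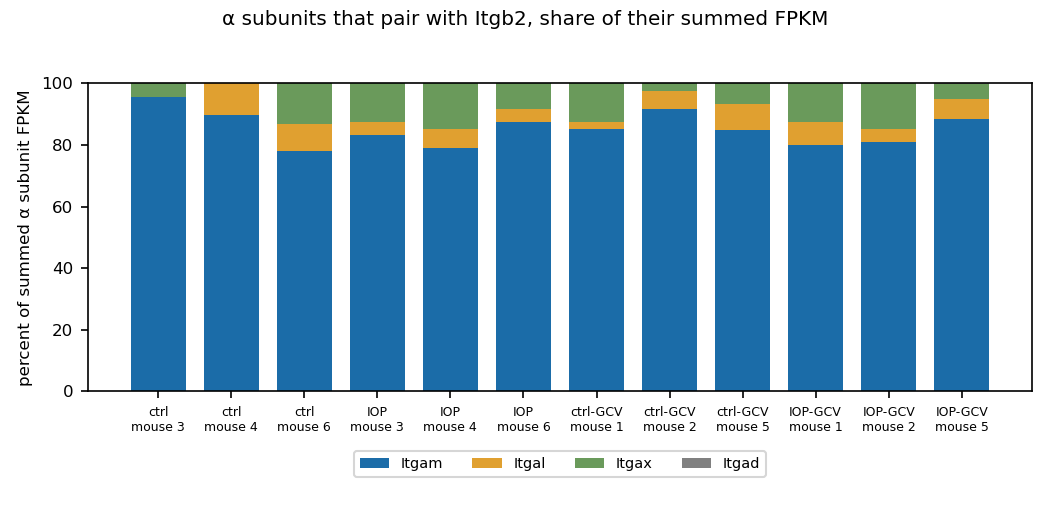
Share of each α subunit that pairs with Itgb2 in their summed FPKM, as stacked bars in percent for each of the 12 retinas. Itgam is the largest share in every retina, from 78.2% to 95.7%, with Itgal and Itgax dividing the rest.

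Other genes of the adhesion cascade were read from 5 lists, whose counts stand beside a background of 12.2% of all rows called over both arms (6.76% higher). Of 8 other leukocyte integrin subunits, 2 rose in the mean IOP effect over both arms and 0 fell, namely Itgax by 1.05 (SE 0.13) and Itga5, a fibronectin receptor subunit, by 0.95 (SE 0.22). The 2 most abundant, Itgb1 (log2 difference 0.64, adjusted p = 0.0754) and Itga6, a laminin receptor subunit (0.91, adjusted p = 0.0570), did not pass. Of 12 other endothelial ligands and junction molecules, 0 rose and 1 fell, a share no larger than the background. Jam2, a junctional adhesion molecule and the most abundant of the list, fell by 0.31 (SE 0.05, adjusted p = 0.00715). Its relative Jam3 had a difference of -0.12 (adjusted p = 0.363). The median of this list was -0.03, against 0.01 over all rows.

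Of 15 selectin ligands and enzymes that build them, 6 rose and 1 fell, with a median of 0.42. Cd44, a hyaluronan receptor that also carries selectin-binding sugars, rose by 2.02 (SE 0.26), Selplg, the main ligand of Selp, by 1.26 (SE 0.23) and the sialomucin Spn by 0.56 (SE 0.16). Among glycosyltransferases, Gcnt1 rose by 0.77 (SE 0.17), St3gal4 by 0.53 (SE 0.12) and B4galt1 by 0.51 (SE 0.10), and St3gal3 fell by 0.44 (SE 0.12). The 2 most abundant genes, Podxl and Glg1, had differences of 0.42 (adjusted p = 0.0863) and -0.23 (adjusted p = 0.157). With the mouse as a block 5 rose and 1 fell, Spn (adjusted p = 0.0651) being lost. Selp, the selectin that Selplg binds, was at 0 in 4 of the same 6 IOP retinas.

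Of 12 genes listed under integrin activation, which act on integrins from inside the cell, 8 were higher and 1 lower, with a median of 0.62. Fermt3, the kindlin of blood cells, rose by 1.78 (SE 0.26) and Tln1, the talin that binds integrin tails, by 0.62 (SE 0.17). Skap2 rose by 1.72 (SE 0.25), Fyb by 1.98 (SE 0.46), Apbb1ip by 1.70 (SE 0.40), Vav1 by 1.57 (SE 0.32), Cytip by 0.45 (SE 0.11) and the GTPase Rap1a by 0.42 (SE 0.11), and Rasgrp2, an exchange factor for Rap1, fell by 1.25 (SE 0.34). Rap1b, the most abundant of the list, had a difference of 0.63 (adjusted p = 0.0843). With the mouse as a block, Tln1 (adjusted p = 0.0833) and Rasgrp2 (adjusted p = 0.0609) were no longer called.

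Of 10 measured signals that induce endothelial adhesion molecules, 4 rose and 0 fell, with a median of 0.66. Il1b rose by 2.55 (SE 0.51), the interferon-responsive factor Irf1 by 1.83 (SE 0.29), the tumour necrosis factor receptor Tnfrsf1a by 1.51 (SE 0.16) and the NF-kB subunit Rela by 0.62 (SE 0.10). Tnf was listed at 0 in all 6 control retinas and had a log2 difference of 0.93 (adjusted p = 0.209), Ifngr1, the most abundant of the list, one of 0.15 (adjusted p = 0.238), and Ifng was at 0 in all 12. In the single arms, between 0 and 2 genes of each list were called.

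**Figure D4:**
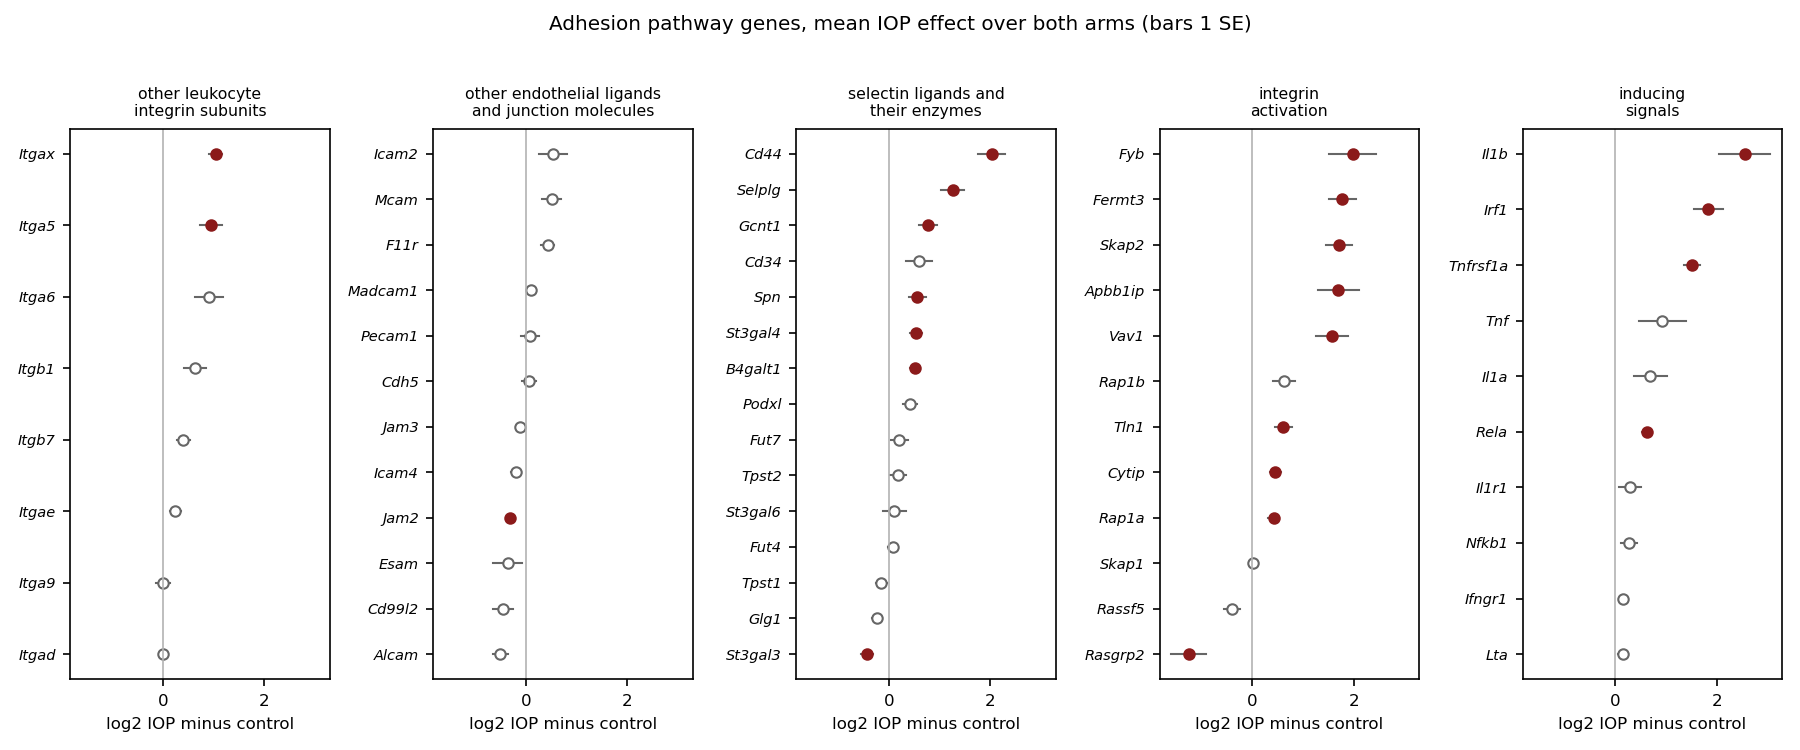
Log2 difference, IOP minus control retinas, of the genes of 5 adhesion pathway lists in the mean effect over both arms, with bars of 1 SE and filled points for adjusted p under 0.05. Filled points on the right are 2 other integrin subunits, 6 selectin ligands or enzymes, 8 integrin activation genes and 4 inducing signals, and Jam2, St3gal3 and Rasgrp2 are filled on the left.

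Marker genes of microglia, monocytes and neutrophils were then read beside the integrins, against the same background of 12.2% of all rows. Of the microglial markers 4 of 8 rose and 1 (Siglech) fell. Their sum was 11.05 to 18.6 FPKM in control and 30.2 to 98.6 FPKM in IOP retinas, with Csf1r and Aif1 most abundant. Other markers of the list moved less. Mean P2ry12 was 2.18 FPKM in ctrl and 2.89 in IOP retinas, and 1.999 in ctrl-GCV and 2.57 in IOP-GCV retinas. Mean Sall1 was 0.525 and 0.502 FPKM without GCV and 0.875 and 0.815 FPKM with it. Whether the higher sum stands for more microglia was not tested. Of the monocyte markers 4 of 5 rose, and their sum went from between 0.820 and 3.63 FPKM in control retinas to between 23.2 and 108 FPKM in IOP retinas, led by Plac8 and Ly6c2. Of 8 measured neutrophil markers 3 rose (S100a8 and S100a9, the most abundant, and Csf3r), and 7 had a log2 difference above 0. Their sums were 1.24 to 17.5 FPKM in control and 16.9 to 400.3 FPKM in IOP retinas. Mpo, also listed, was at 0 in every retina and was not tested. The IOP-GCV retina of mouse 5, highest in Itgb2, Itgal and Itgam, was highest in all of these sums, and mouse 2, lowest in these integrins, had the lowest microglial sum of the IOP retinas, whereas the lowest monocyte sum was that of mouse 4 (23.2 against 23.7 FPKM in mouse 2) and the lowest neutrophil sum that of mouse 3 (16.9 against 32.6 FPKM). T and NK cells carry Itgal and Itga4, and their markers summed to at most 1.31 FPKM in control and 3.10 FPKM in IOP retinas, with Lck and Cd8a most abundant and 1 of 10 called (Nkg7), a share near the background. B cell markers summed to at most 1.95 FPKM, with Cd79b and Cd79a most abundant and 1 of 4 (Cd79b) called. With the mouse as a block Csf1r (adjusted p = 0.0520), Nkg7 (adjusted p = 0.0576) and Cd79b (adjusted p = 0.0615) were no longer called. Platelet markers, of cells that also carry Selp, had 2 of 6 higher (Pf4, Itga2b) and 1 lower (Gp1bb), of which only Pf4 was called with the mouse as a block, and the retina with the most Selp, of mouse 4, had the second lowest sum of the IOP retinas, at 7.49 FPKM in a range of 7.20 to 77.9, while the other IOP retina with Selp above 0, that of mouse 5, had the highest. The part of these cells in the integrin result was not tested.

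Of the endothelial markers 1 of 10 (Emcn, 0.58, adjusted p = 0.0440) was called, a share near the background of 12.2% of all rows, and the most abundant, Kdr and Flt1, were not. Their sum was 28.7 to 43.8 FPKM in control retinas and 21.2 to 61.7 FPKM in IOP retinas. Among the IOP retinas, that of mouse 4 had the highest endothelial sum, the highest Vcam1 and an estimated 14 of the 18 Selp fragments, and that of mouse 6 had the lowest endothelial sum, Vcam1 and Icam1. Vcam1 rose by 1.14 (adjusted p = 0.00169) without the former and by 1.47 (adjusted p = 0.00204) without the latter. Of the pericyte markers 1 of 6 (Anpep, which myeloid cells share) rose, and their sum was 4.48 to 9.60 FPKM in control and 5.07 to 18.3 FPKM in IOP retinas, with Rgs5 and Anpep most abundant.

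**Figure D5:**
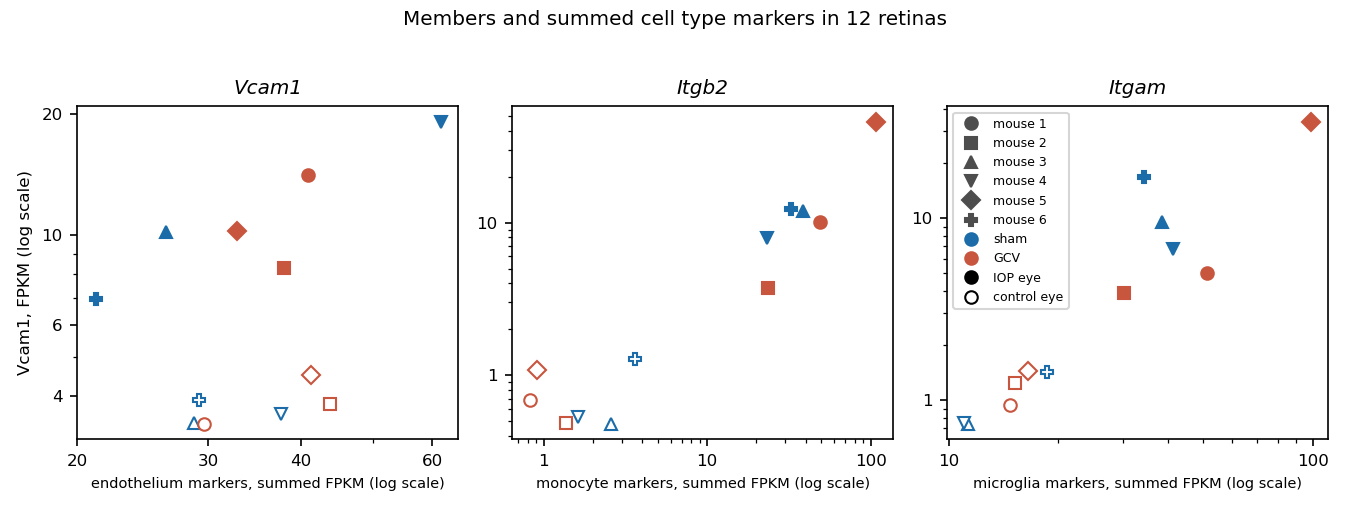
FPKM of Vcam1, Itgb2 and Itgam against the summed FPKM of endothelium, monocyte and microglia markers in the 12 retinas, on log axes, with filled symbols for IOP eyes, open symbols for control eyes and a shape for each mouse. IOP and control eyes separate along both axes for the integrins but only along the vertical axis for Vcam1, where mouse 4 is at the top right and the IOP eye of mouse 6 at the left.

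The tissue label was in keeping with the markers, since rod genes (Gnat1, Sag) summed to 17956 to 30451 FPKM, Mueller glia genes (Apoe, Glul) to 1479 to 2517 FPKM, with Apoe higher and Glul and Rlbp1 lower in IOP retinas but only Glul called with the mouse as a block, and ganglion cell genes (Sncg, Nefl) to 193 to 1597 FPKM, the last with 6 of 6 genes lower in IOP retinas, or 1 of 6 with the mouse as a block. Lens genes (Cryaa, Crybb2) were uneven between the eyes compared. Their sums were 4.81 to 34.5 FPKM in ctrl and 92.9 to 4764 FPKM in IOP retinas. With GCV they were 69.7 to 6721 FPKM in ctrl-GCV retinas, highest in mouse 1, and 3057 to 6078 FPKM in IOP-GCV retinas. Over both arms 4 of 6 lens genes were higher, or 5 of 6 with the mouse as a block. The backgrounds were 12.2% and 7.3% of all rows. The part of lens material in the IOP contrasts was not tested. Pigment epithelium genes (Ttr, Rgr) ran from 13.5 to 256 FPKM and cornea and iris genes (Aldh3a1, Krt5) from 5.20 to 107 FPKM. Haemoglobin and erythroid genes (Hbb-b1, Hba-a1) ran from 25.6 to 524 FPKM, and these 3 lists had 0 genes called. Estimated depth was 3980000 fragments in the IOP retina of mouse 6 and 6860000 to 9020000 in the other retinas. Without that retina 5 members were called over both arms, Icam1 at 1.75 (adjusted p = 0.0283).

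The genes most like each member over the 12 libraries were named by the Pearson r of log2(FPKM + 1) among the 12910 genes that averaged 1 FPKM or more, as a description in which the points share the IOP contrast. Nearest to Itgb2 were Cd53 (r = 0.992), Mpeg1 (0.991) and Acp5 (0.991), and nearest to Itgam were Msr1 (0.993), Msn (0.991) and Fgr (0.988); Cd53, Mpeg1, Msr1 and Fgr are genes of myeloid or other leukocytes. Nearest to Icam1 were Lpcat3 (0.972), Tmbim1 (0.969) and the ferritin gene Ftl1 (0.969), and nearest to Vcam1 were Uaca (0.963) and the interferon-inducible Gbp9 (0.961) and Slfn4 (0.941). Nearest to Itga4 were Smad5 (0.978), Lman1 (0.976) and Btaf1 (0.974), which are expressed in many cell types. Between members, r was 0.977 for Itgb2 and Itgam, 0.932 for Itga4 and Itgam, 0.891 for Icam1 and Itgb2, 0.762 for Icam1 and Vcam1 and 0.608 for Icam1 and Itga4.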

How the data were processed

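RNA from 12 retinas was made into stranded mRNA libraries. The deposited table holds 1 value per gene and library, which was read as FPKM from the multiples of 1 fragment that its low values form. According to the methods, the authors counted read pairs over RefSeq exons with HOMER, whereas the submitters' processing notes name TopHat2, Bowtie2, Cufflinks, Cuffdiff and mm10; which of them made the deposited FPKM values, and any scaling between libraries, is not given in the sources used here. Fragments were estimated from transcript length less 170 bases and the depth at which low values came closest to whole numbers (80.1% to 88.5% within 0.15), and no counting interval was computed.

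The 18509 rows above 0 in at least 1 library were transformed to log2(FPKM + 1) and fitted in limma 3.58.1 under R 4.3.3 (4 group means, variance trend, Benjamini-Hochberg adjustment at 0.05). The 8 members, the 5 pathway lists and 15 marker lists were chosen with earlier results of these data known, and a few list genes that are not reported here were left out of the counts and sums. Named genes are the members, list genes called over both arms, the 2 most abundant genes of each list and the 3 genes most like each member with a mean of at least 1 FPKM; others were named after their values were seen. Eyes of 1 mouse form a pair, and the correlation of their deviations from the group means was -0.117, 0.132, 0.207, 0.388, 0.166 and 0.0998 for mice 1 to 6 over 12910 genes. The test was checked on simulated data. Alternatives were a pseudocount of 0.1, the mouse as a block, a minimum of 1 FPKM in 3 libraries, a fit of the compared groups alone, median-ratio scaling, no variance trend and each library or, chosen after seeing the data, each mouse left out.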

Additional observations from a re-analysis of the deposited data

How the results depend on the processing

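All directions of the IOP effects on Icam1, Vcam1, Itgb2, Itgal, Itgam and Itga4 were kept under every alternative that gave a value. Itgal did not pass the 1 FPKM filter, and the mean over both arms already uses all groups, so that it has no fit of the compared groups alone. Without GCV, the members called, 0 as reported, were 3 at a pseudocount of 0.1, 2 with the 1 FPKM filter, 2 with only the groups compared and 0 to 4 with a library or mouse left out; all genes called, 306 as reported, were 464 at a pseudocount of 0.1, 75 with the mouse as a replicate block and 9 to 2490 with one left out. With GCV, 0 members became 2 at a pseudocount of 0.1, 2 with the filter and 0 to 3 with one left out, and 334 genes became 535 at a pseudocount of 0.1, 92 with only the groups compared, 144 with the mouse block and 33 to 716 with one left out. Over both arms, 5 members became 4 with the mouse block and 2 to 6 with one left out, and 2258 genes became 1351 with the block and 529 to 4515. Among the members the block changed no call other than Icam1. The interaction gave 0 to 2 genes, GCV in IOP retinas 0 to 4 and GCV in control retinas 0 to 3 with a library left out, and the last 1 at a pseudocount of 0.1 and 1 with only the groups compared; no member was among them. Itgal was called over both arms at a pseudocount of 0.1 (2.06, adjusted p = 0.0233). The cause of these moves was not tested. Median-ratio scaling moved the median of all rows by less than 0.1 and changed no member call, nor did leaving out the variance trend.

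Log2 differences that changed sign belonged to contrasts with no call. For GCV in control retinas Icam1 was 0.0554 at a pseudocount of 0.1, and with a library left out Icam1 ranged from -0.25 to 0.18, Itgal from -0.0534 to 0.0527, Itgb2 from -0.13 to 0.21 and Vcam1 from -0.00935 to 0.15. For GCV in IOP retinas Itgal ranged from -0.26 to 0.51, Itgam from -1.07 to 0.35, Itgb2 from -0.68 to 0.98 and Vcam1 from -0.37 to 0.30. For the interaction Itga4 ranged from -0.42 to 0.17, Itgal from -0.27 to 0.51, Itgam from -1.24 to 0.18, Itgb2 from -0.68 to 0.98 and Vcam1 from -0.44 to 0.23. Sele and Selp rest on few fragments, at most an estimated 14 in a library.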
